A study of Arabidopsis thaliana and Arabidopsis lyrata subsp. lyrata with 12 samples.

Results

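Rosette leaves of *A. thaliana* Col-0, the standard laboratory accession, were compared at the end of a heat stress (HS) and after recovery from it. The HS libraries came from wild-type plants raised for 3 weeks on soil in long days of 16 h light and 8 h dark, at 21 °C by day and, by the study's methods, 16 °C at night, to the stage of 5 leaves, and collected directly after 6 h at 37 °C. The recovery libraries came from plants that had the same HS and then spent 48 h back in those conditions. Each condition had 2 libraries, so that the comparison rests on 4 of the 12 libraries of the series, which also holds unstressed plants and *A. lyrata*. All 32678 loci of the *A. thaliana* count table entered, and 17970 of them had enough reads to be tested. The members of the comparison were set by the library labels alone and no measured value chose them. Recovered plants were 48 h older than the plants at the end of HS, and ageing and the return to control conditions are confounded in this design. The labels do not give the hour of collection or say whether the libraries of a pair came from separate plants, and the p-values therefore measure the spread between these libraries, which may be technical.

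Heat unfolds proteins, and plant cells answer with heat shock factors (HSFs), transcription factors that bind inverted repeats of the core GAA, called heat shock elements. Their targets encode small heat shock proteins, which hold unfolded proteins, the chaperones HSP70, HSP90 and HSP101, which refold or disentangle them, and scavengers of peroxide. The endoplasmic reticulum (ER) has a folding response of its own, and ONSEN, a COPIA retrotransposon, carries heat shock elements in its long terminal repeats (LTRs). Growth and cell division are often held back in heat.

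The sequences that go with the largest groups of changes are shown here with the matched letters in capitals, 5′ to 3′ along the gene, from the RefSeq genome TAIR10.1. The windows searched ran from 250 bases before to 50 bases after each annotated gene start, on both strands, and 17854 of the 17970 genes tested had such a window. A heat shock element was counted where 3 cores, GAA and TTC in turn, were each parted by 2 bases. Of all windows 103 of 17854 (0.577%) held one, of genes called at least 16-fold lower after recovery 17 of 293 (5.8%), and of genes called at least 16-fold higher 2 of 593 (0.337%). By list, 3 of 15 (20%) HSF windows and 2 of 19 (10.5%) small heat shock protein windows held one. The HSP70, HSP90 and HSP100 list had 3 of 21 (14.3%) and the other heat response genes 4 of 14 (28.6%). Stretches upstream of the start of 5 genes that fell are given as examples. They are regulators (HSFA2, DREB2A), small heat shock proteins (HSP17.4, AT1G53540) and an enzyme of protective sugars (GolS1). The 2 small heat shock protein genes shown are the only ones of their list with a match.
HSFA2 (chr2:11135516-11135568, plus strand): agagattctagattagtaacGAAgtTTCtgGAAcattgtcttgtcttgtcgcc
DREB2A (chr5:1602021-1602073, plus strand): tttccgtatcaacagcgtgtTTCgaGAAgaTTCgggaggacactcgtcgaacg
HSP17.4 (chr3:16984934-16984986, minus strand): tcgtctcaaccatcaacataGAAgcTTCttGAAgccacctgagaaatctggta
AT1G53540 (chr1:19980226-19980278, plus strand): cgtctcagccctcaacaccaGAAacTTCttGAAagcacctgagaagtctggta
GolS1 (chr2:19370546-19370598, minus strand): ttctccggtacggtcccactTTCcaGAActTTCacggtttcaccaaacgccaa

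ONSEN LTRs were taken from the study's supplementary sequences and found letter for letter in the genome. Their stretch of cores holds pairs of the form TTCNNGAA, and the gap between the pairs has 3 bases. By the strict count used above, of 3 cores with gaps of 2 bases, it is therefore not a perfect element. The study's own classification put this stretch in its strongest class of putative heat-responsive element. The copies at AT1G48710 and AT1G58140 are shown because they differ there. The copy at AT1G58140 holds 1 complete pair where the other holds 2 pairs, and keeps the TTC of the second pair without its GAA. The study put that copy in a class of moderate strength for the loss of this motif.
AT1G48710 (chr1:18013278-18013321, plus strand): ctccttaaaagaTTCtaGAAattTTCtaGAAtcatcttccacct
AT1G58140 (chr1:21529695-21529738, minus strand): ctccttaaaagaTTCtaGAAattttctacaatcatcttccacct
Both loci fell between the end of HS and recovery, with values given with the other ONSEN loci.

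Other groups of genes held other letters in their windows. The ER stress element, CCAAT and CCACG parted by 9 bases, was in 5 of 20 (25%) windows of the ER folding list and in 92 of 17854 (0.515%) of all windows. The telo-box AAACCCTA was in 9 of 12 (75%) of the ribosome assembly list, in 18 of 38 (47.4%) of the ribosomal protein list and in 1015 of 17854 (5.69%) of all. The site II letters TGGGCC were in 27 of 38 (71.1%) of the ribosomal protein list, in 12 of 19 (63.2%) of the small heat shock protein list and in 3588 of 17854 of all. The core of the mitosis-specific activator (MSA) element, CCAACGG, was in 9 of 36 (25%) of the mitosis list and in 412 of 17854 (2.31%) of all, and the E2F site TTTCCCGC in 8 of 27 (29.6%) of the replication list and in 154 of 17854 (0.863%) of all. The evening element AAAATATCT was in 6 of 21 (28.6%) of the clock list against 556 of 17854 (3.11%) of all, and the G-box CACGTG in 9 of 21 (42.9%) and 10 of 20 (50%) of the clock and ER lists against 1594 of 17854 (8.93%) of all. The ER stress element ends in letters that can also begin a G-box. The examples are an ER co-chaperone and a nucleolar protein gene, which were lower after recovery, and 2 mitotic cyclins and a chromatin assembly gene, which rose.
P58IPK (chr5:750022-750080, plus strand): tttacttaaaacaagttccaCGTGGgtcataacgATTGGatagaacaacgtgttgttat
FIB1 (chr5:21293920-21293967, plus strand): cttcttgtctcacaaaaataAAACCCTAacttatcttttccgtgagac
CYCB1;1 (chr4:17624343-17624389, minus strand): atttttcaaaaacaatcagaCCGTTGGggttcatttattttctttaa
CYCB2;1 (chr2:7663948-7663994, plus strand): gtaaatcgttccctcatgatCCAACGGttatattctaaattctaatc
FAS1 (chr1:24324131-24324178, minus strand): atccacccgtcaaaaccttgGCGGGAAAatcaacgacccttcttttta
These matches describe the letters and were not tested as binding sites.

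The libraries held 9624503 and 45254555 gene reads at the end of HS and 10235394 and 10887129 after recovery. The replicate pairs differed by more than counting noise, the HS pair more than the recovery pair. Over genes with at least 20 reads the chi-square per degree of freedom was 3.28 in the HS pair and 1.54 in the recovery pair. Over nuclear loci alone it was 2.72 and 1.54. This measure grows with depth at a given spread, and the HS pair held more reads. In the HS and recovery pairs 12.4 and 8.66% of genes passed the point that 5% pass by counting alone. The control pair, which enters only the fit of all 6 libraries, differed far more. Its chi-square per degree of freedom was 38.0, with 53.0% of genes past that point, and its spread enters the variance of that fit. The 50 loci with most reads took 28.5 and 28.8% of the HS reads and 22.2 and 22.3% of the recovery reads, and the 500 with most reads took 57.8 and 58.1% against 45.8 and 46.0%. The main scaling (TMM, which sets the bulk of genes of middling abundance equal) and the plain library totals put the median log2 fold change at 0.11 and 0.98, and any change within about this distance of 0 depends on the scaling. Leaf markers were abundant in all 4 libraries (RBCS1A, the small subunit of Rubisco, at 19791 and 20829 CPM, the usual read counts scaled to a common library size, at the end of HS and 10423 and 11103 CPM after recovery, with the TMM factors in the library sizes as in all CPM given here), none of 4 root or 5 seed markers had enough reads for a test, and 4 of 8 flower and meristem markers had, at up to 10.06 CPM. Of those 4, STM, AG and SEP3 were more than 2-fold lower by TMM, and none was more than 2-fold lower with library totals; the call of STM was lost in the fit of all 6 libraries (adjusted p = 0.13).

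Of the 17970 genes tested, 8166 (45.4%) were higher and 7318 (40.7%) lower after recovery (edgeR quasi-likelihood test, threshold of 0.05 on the Benjamini-Hochberg adjusted p), 86.2% in all. With library totals 12561 (69.9%) were higher and 3542 (19.7%) lower, 89.6% in all. A test against a change of 2-fold called 4485 genes higher (25.0%) and 3314 lower (18.4%) by TMM, 43.4% in all, and 7989 (44.5%) and 1275 (7.10%), 51.6% in all, by library totals. All of the 4485 increases by TMM and 1275 of its decreases were called under both scalings, and no gene was called in opposite directions. Library totals shift all log2 fold changes up by nearly the same amount. The overlap of the increases and the lack of opposite calls follow from this shift and are no separate check. For a gene that rose, more than 2-fold under both scalings therefore repeats the call by TMM, and only for decreases is it stricter. Counts of list members that passed the test are by TMM unless library totals are named. They are to be read beside these shares of all genes. A list's median log2 fold change (recovery minus HS) is to be read beside the 0.11 of all genes tested. Among genes that passed, 350 were at least 16-fold lower and 595 at least 16-fold higher. Beyond 64-fold the decreases outnumbered the increases (148 against 77). Genes without reads in a group (64 of the decreases, 39 of the increases) were entered at the bound that 3 reads over the group allow. The same was done in the other counts of at least 16-fold. A promoter window existed for 293 of the 350 and 122 of the 148, against 593 of the 595. Organelle genome loci, which have no window, are in these counts, and their number was not taken. Mitochondrial genome loci took 0.107 and 0.237% of the reads of the HS replicates.

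The HSF list fell at its inducible members. Of 21 HSFs, 15 had enough reads, 9 fell, 4 rose and 2 did not pass, with a median of -1.33 (8 lower and 6 higher with library totals), and 7 were more than 2-fold lower under both scalings. HSFA2, which prolongs the heat response, had 4955 and 22692 reads at the end of HS and 4 and 9 reads after recovery. The groups lay far apart, with a log2 fold change of -10.53 ± 0.12 (SE, n = 2 per group, adjusted p = 4.7e-61). HSFA7B had 152 and 936 reads at the end of HS and none in either recovery library, so it was at least 255-fold lower, the fold being a bound set by 3 reads. HSFA3, a target of DREB2A, stood at 89.7 and 88.0 CPM at the end of HS and 2.39 and 3.21 CPM after recovery, a log2 fold change of -4.97 ± 0.11. The repressor HSFB2B (-4.87) and HSFA7A (-4.04) fell as well, and so did HSFA1E (-3.16) and HSFA1D (-1.08) of the HSFA1 group that starts the response, HSFA1D by TMM and not beyond 2-fold. HSFA1A did not pass the test (-0.22). Of the 4 that rose, 2 were more than 2-fold higher under both scalings: HSFA8, at 4.47 and 3.36 CPM at the end of HS and 20.5 and 20.9 CPM after recovery (log2 fold change 2.53 ± 0.14), and HSFA1B (HSF3), at 2.93 and 4.05 CPM at the end of HS and 12.2 and 11.6 CPM after recovery (1.64 ± 0.15).

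Small heat shock proteins gave the largest decreases of any list. Of 19 genes, all had enough reads, 18 fell, 17 of them more than 2-fold under both scalings, and 1 rose, and the median was -9.96. The list took 8.74 and 9.04% of all gene reads at the end of HS and 0.0187 and 0.0211% after recovery. HSP18.2, a cytosolic class I protein and the gene with most reads at the end of HS, stood at 34363 and 33226 CPM at the end of HS and 50.5 and 56.7 CPM after recovery. It fell by 9.30 on the log2 scale (SE 0.08, adjusted p = 4.6e-68) and still had 698 and 829 reads after recovery, the most of the list. HSP22.0 of the ER stood at 17216 and 17179.98 CPM at the end of HS and 6.80 and 9.30 CPM after recovery, with a log2 fold change of -11.06 ± 0.09. The plastid protein HSP21 stood at 11305 and 11333 CPM at the end of HS and 2.82 and 4.58 CPM after recovery (-11.57 ± 0.10) and the mitochondrial HSP23.6 at 3047 and 3316 CPM at the end of HS and 1.23 and 2.39 CPM after recovery (-10.76 ± 0.10). Class II genes HSP17.6II and HSP17.6A fell by 10.35 and 10.49. The decreases thus covered cytosol, ER, plastid and mitochondrion, and the 15 largest, from -6.73 to -11.57 by TMM, were all beyond 64-fold by TMM (AT2G19310 stood at -5.86 with library totals). At the other end of the list AT4G21870 fell by 1.38 only and AT5G54660 rose, from 4.05 and 4.32 to 7.01 and 8.14 CPM (0.83 ± 0.17). These last 2 genes were also among the low ones at the end of HS. How reads that map to several places were counted is not stated for genes, so close relatives among class I genes are uncertain one by one.

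All 21 genes of the HSP70, HSP90 and HSP100 families fell, and 19 were more than 2-fold lower under both scalings, with a median of -4.13. Their share of reads was 4.00 and 3.92% at the end of HS and 0.363 and 0.364% after recovery. HSP90.1, the heat-inducible cytosolic HSP90, stood at 5491 and 5839 CPM at the end of HS and 9.91 and 10.9 CPM after recovery (log2 fold change -9.09 ± 0.08). HSP101, the disaggregase needed for acquired heat tolerance, stood at 2215 and 2216 CPM at the end of HS and 7.01 and 6.91 CPM after recovery (-8.31 ± 0.08). The inducible HSP70 had 41533 and 203182 reads at the end of HS and 260 and 294 reads after recovery (-8.25 ± 0.07). The constitutive HSC70-1 fell far less: it stood at 17257 and 16952 CPM at the end of HS and 947 and 952 CPM after recovery (-4.17 ± 0.06) and remained among the abundant transcripts. The smallest change of the list was -1.54.

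Other heat response genes fell almost as a whole, 13 of 14, with 12 more than 2-fold lower under both scalings and a median of -5.81. ROF2 (AT5G48570), an immunophilin that binds HSP90, stood at 9031 and 9071 CPM at the end of HS and 18.1 and 15.8 CPM after recovery (-9.06 ± 0.08). APX2, a cytosolic ascorbate peroxidase, stood at 1386 and 1410.1 CPM at the end of HS and 1.74 and 3.62 CPM after recovery (-9.01 ± 0.10), and the co-chaperone Hop3 at 3082 and 3049.5 CPM at the end of HS and 6.07 and 6.63 CPM after recovery (-8.91 ± 0.08). HSA32, which retains heat memory over days, fell by 7.43, the coactivator MBF1C by 7.05, the galactinol synthase GolS1 by 6.72 and DREB2A by 5.16. HSBP, a negative regulator that binds HSFs, had a log2 fold change of -0.01 and did not pass the test. For HSA32 93 and 86 reads were left after recovery, against 7837 and 35952 at the end of HS.

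**Figure D1:**
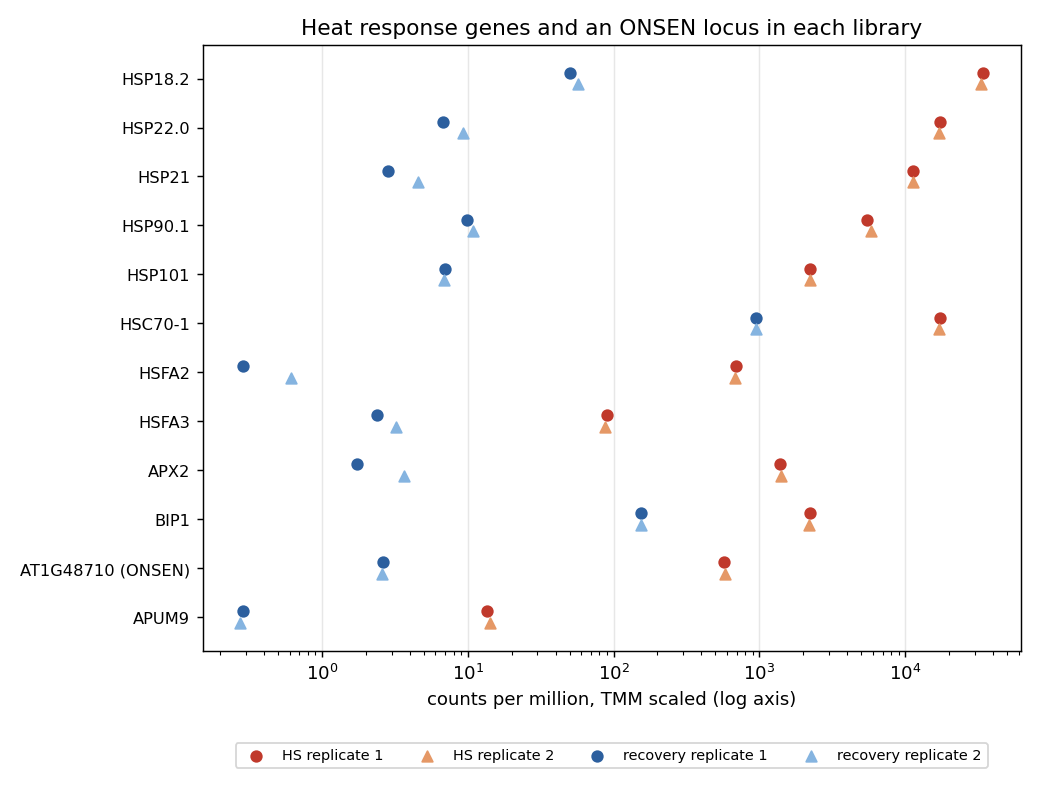
CPM values (TMM scaled, log axis) of 12 heat response genes in each of the 4 libraries; red and orange are the HS replicates, dark and light blue the recovery replicates. In each gene both HS libraries lie above both recovery libraries, from HSP18.2 with 34363 and 33226 CPM against 50.5 and 56.7 CPM to HSC70-1, which keeps 947 and 952 CPM.

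ER folding genes were lower in 18 of 20 by TMM, and in 15 with library totals, which put 3 higher, with 9 more than 2-fold lower under both scalings and a median of -1.83. The co-chaperone ERDJ3A stood at 224 and 219.6 CPM at the end of HS and 1.81 and 2.39 CPM after recovery (-6.71 ± 0.10). The ER HSP70 genes BIP1, at 2237 and 2183 CPM at the end of HS and 155 and 153 CPM after recovery, and BIP2, at 1391 and 1333 CPM at the end of HS and 98.6 and 99.95 CPM after recovery, fell, BIP2 by 3.78 on the log2 scale, and since their sequences are close they may share reads. The sensor BZIP28 fell by 3.72 and calnexin CNX1 by 3.65. The RNase sensor IRE1B rose, from 4.61 and 5.06 to 15.3 and 15.72 CPM (1.64 ± 0.13), whereas IRE1A was lower by TMM. P58IPK, shown above, fell by 1.47 by TMM and was not beyond 2-fold under both scalings.

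ONSEN transcripts fell to low counts. Of 8 full-length copies with a gene locus, 7 had enough reads, and all 7 were more than 2-fold lower under both scalings, with log2 fold changes from -8.07 to -6.98 and a median of -7.44. The locus with most reads, AT1G48710, had 4082 and 19438 reads at the end of HS and 36 and 38 reads after recovery (log2 fold change -7.79 ± 0.09). AT1G58140 had 2579 and 11984 reads at the end of HS and 30 and 30 reads after recovery (-7.41 ± 0.09). Its LTR lacks the last GAA core. AT3G61330 had 3019 and 14366 reads at the end of HS and 44 and 52 reads after recovery (-6.98 ± 0.09), the smallest decrease of the 7, and AT3G32415 had 1160 and 5464 reads at the end of HS and 10 and 7 reads after recovery (-8.07 ± 0.12), the largest. AT1G11265 was listed at 0 reads in all 4 libraries although its LTR sequence is identical to that of AT3G61330. Reads of near-identical copies may not be assigned to the right one, and the 7 values are not independent. ONSEN loci took 0.189 and 0.189% of the reads at the end of HS and 0.00200 and 0.00190% after recovery.

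APUM9 (PUM9), an RNA-binding Pumilio gene, had 97 and 471 reads at the end of HS and 4 and 4 reads after recovery, a log2 fold change of -5.60 ± 0.26. The locus AT1G35735 next to it had 41 and 183 reads at the end of HS and 0 and 1 reads after recovery. With a single read after recovery its fold is poorly set, and both loci were low in the recovery libraries and above them in both HS libraries. Since the libraries kept no strand, reads of overlapping transcripts on opposite strands cannot be told apart.

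Genes of transcriptional gene silencing, which keep transposons off by DNA and histone methylation, were mostly higher after recovery. Of 28 with enough reads, 21 were higher, 3 lower and 4 did not pass, beside 45.4% higher and 40.7% lower of all genes. The median was 0.89, and 10 were more than 2-fold higher under both scalings, beside 25.0% of all genes. With library totals 27 were higher, beside 69.9% of all genes. A link to the ONSEN loci was not tested. Only VIM1, which maintains CG methylation, was more than 2-fold lower under both scalings: it stood at 173 and 168 CPM at the end of HS and 23.4 and 25.6 CPM after recovery (-2.79 ± 0.06). Its close relatives VIM2 and VIM3 rose, VIM3 from 3.49 and 1.35 to 10.3 and 9.85 CPM (2.51 ± 0.21) and VIM2 from 1 and 9 reads to 45 and 40 reads (3.56 ± 0.38). The H3K9 methyltransferase SUVH6 stood at 3.49 and 2.55 CPM at the end of HS and 15.1 and 14.5 CPM after recovery (2.43 ± 0.16). DDM1 (CHR1), a chromatin remodeller, stood at 5.45 and 4.67 CPM at the end of HS and 11.0 and 11.1 CPM after recovery (1.19 ± 0.15), and was beyond 2-fold with library totals but not by TMM. MOM1 had a log2 fold change of 0.35 ± 0.09 (adjusted p = 6.5e-04) and HDA6 of -0.64 ± 0.09, which library totals turned to 0.23. DMS11 (MORC6), the remaining one that was lower by TMM (-0.34 ± 0.13), lost its call without HS replicate 2 (adjusted p = 0.087) or recovery replicate 2 (0.13) and turned to 0.53 with library totals. MOM1 lost its call with DESeq2 (adjusted p = 0.12) and with all 6 libraries (0.10).

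**Figure D2:**
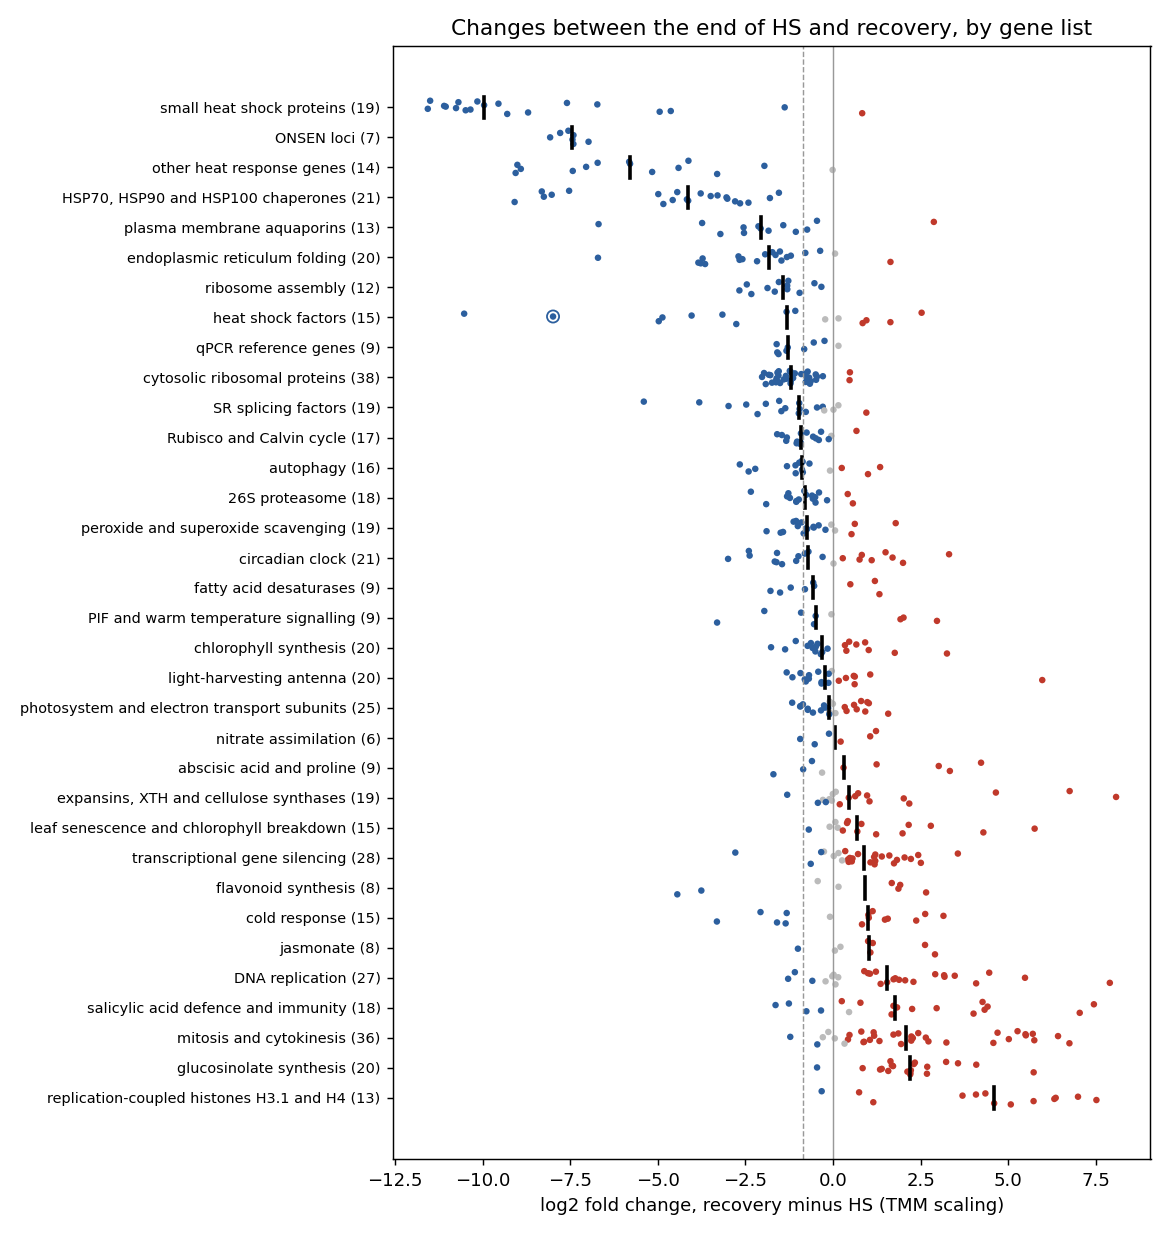
Log2 fold changes (recovery minus HS, TMM scaling) of the tested members of each gene list, with the number tested in brackets; red points passed the test as higher, blue as lower, grey did not pass, black bars are medians, and a ring marks HSFA7B, which is drawn at its bound. The solid line is 0 and the dashed line is where 0 lies under library totals. Small heat shock proteins (median -9.96) and H3.1 and H4 histones (4.60) lie at the ends.

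Cell division genes rose. Of 36 genes of mitosis and cytokinesis with enough reads, 30 rose, 2 were lower by TMM and 4 did not pass, with a median of 2.09, and 22 were more than 2-fold higher under both scalings. The cyclin CYCB1;2 (CYC1BAT) had 0 and 6 reads at the end of HS and 227 and 247 reads after recovery (6.75 ± 0.27). CYCB1;4 had 2 and 1 reads at the end of HS and 93 and 106 reads after recovery, a ratio of 94.5 (95% counting interval 31.9 to 462) between the summed reads of the groups after TMM scaling, and the kinesin ATK5 had 1 and 9 reads at the end of HS and 189 and 198 reads after recovery (5.75 ± 0.26). These genes were close to absent at the end of HS in both libraries, and reached 6.72 to 16.9 CPM after recovery. CYCB1;1 and CYCB2;1, whose MSA stretches are shown above, rose by 4.58 and 5.50. EDE1, a microtubule-binding protein, fell by TMM from 6.84 and 5.72 to 3.04 and 2.12 CPM (-1.22 ± 0.21) and did not pass with library totals, and the phragmoplast gene MAP65-3 (PLE), lower by TMM (-0.45 ± 0.10), turned to 0.42 with them. In bulk tissue, more dividing cells and more transcript per cell cannot be told apart.

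DNA replication genes rose in 19 of 27, with 3 lower, 5 that did not pass, a median of 1.54 and 16 more than 2-fold higher under both scalings. RPA70D, a single-strand binding subunit, had 1 and 2 reads at the end of HS and 267 and 286 reads after recovery, a ratio of 263 (95% counting interval 89.4 to 1277). CDC45, part of the replicative helicase, had 0 and 4 reads at the end of HS and 71 and 63 reads after recovery (5.48 ± 0.42) and FAS1 of chromatin assembly had 1 and 20 reads at the end of HS and 148 and 179 reads after recovery (4.46 ± 0.24). The 3 that were lower by TMM are the D-type cyclins CYCD3;1 and CYCD3;3 and the repressor E2FC, which act before S phase, and CYCD3;1 turned to 0.28 with library totals. CYCD3;3 stood at 32.3 and 29.3 CPM at the end of HS and 12.8 and 12.0 CPM after recovery (-1.28 ± 0.10), and none of the 3 was beyond 2-fold under both scalings. PCNA2, RNR2A, CYCD3;2, E2FA and E2FB did not pass.

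Replication-coupled histone genes had the highest median of all lists, 4.60: 12 of 13 H3.1 and H4 genes were higher and 11 were more than 2-fold higher under both scalings. The H3.1 gene AT5G10390 had 1 and 2 reads at the end of HS and 214 and 210 reads after recovery, a ratio of 201 (95% counting interval 68.4 to 980.2). The H4 genes AT3G45930 and AT3G46320 had 1 and 3 reads at the end of HS and 183 and 201 reads after recovery and 3 and 4 reads at the end of HS and 185 and 236 reads after recovery, with log2 fold changes of 6.99 ± 0.31 and 6.36 ± 0.28. One H4 gene, AT1G07660, did not share this pattern, with 16.3 and 18.3 CPM at the end of HS and 14.7 and 13.8 CPM after recovery. Its log2 fold change of -0.32 turned to 0.54 with library totals and lost its call when HS replicate 2 (adjusted p = 0.22) or recovery replicate 2 (0.061) was left out. Histone copies resemble each other in sequence and their reads may be shared. The linker histone gene AT1G06760 and the H2A gene HTA6 were among the 12 largest increases where the mean reached 10 CPM: HTA6 had 1 and 7 reads at the end of HS and 716 and 709 reads after recovery (7.94 ± 0.18).

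Cell expansion genes rose at single members rather than as a list. Of 19 expansins, xyloglucan-modifying enzymes and cellulose synthases with enough reads, 11 rose, 3 were lower and 5 did not pass, with a median of 0.45. Of all genes tested, 45.4% were higher and 40.7% lower. In the list 5 were more than 2-fold higher under both scalings, a share near the 25.0% of all genes. EXPA8, which loosens cell walls, had 4 and 4 reads at the end of HS and 715 and 866 reads after recovery, the largest increase where the mean reached 10 CPM (8.08 ± 0.19, adjusted p = 8.6e-44). EXPA11 stood at 0.698 and 0.300 CPM at the end of HS and 40.1 and 41.6 CPM after recovery (6.75 ± 0.18) and EXPA1 at 9.78 and 11.0 CPM at the end of HS and 266 and 271 CPM after recovery (4.65 ± 0.07). EXPA6 was lower by TMM, at 176 and 163 CPM at the end of HS and 67.6 and 68.2 CPM after recovery (-1.31 ± 0.06). The cellulose synthases CESA1 and CESA3 (CEV1) were lower by TMM (-0.21 ± 0.05 and -0.43 ± 0.05) and turned to 0.66 and 0.43 with library totals. PME5, a pectin methylesterase, and the early nodulin-like genes ENODL14 and ENODL15 rose by 7.83, 7.35 and 7.11.

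**Figure D3:**
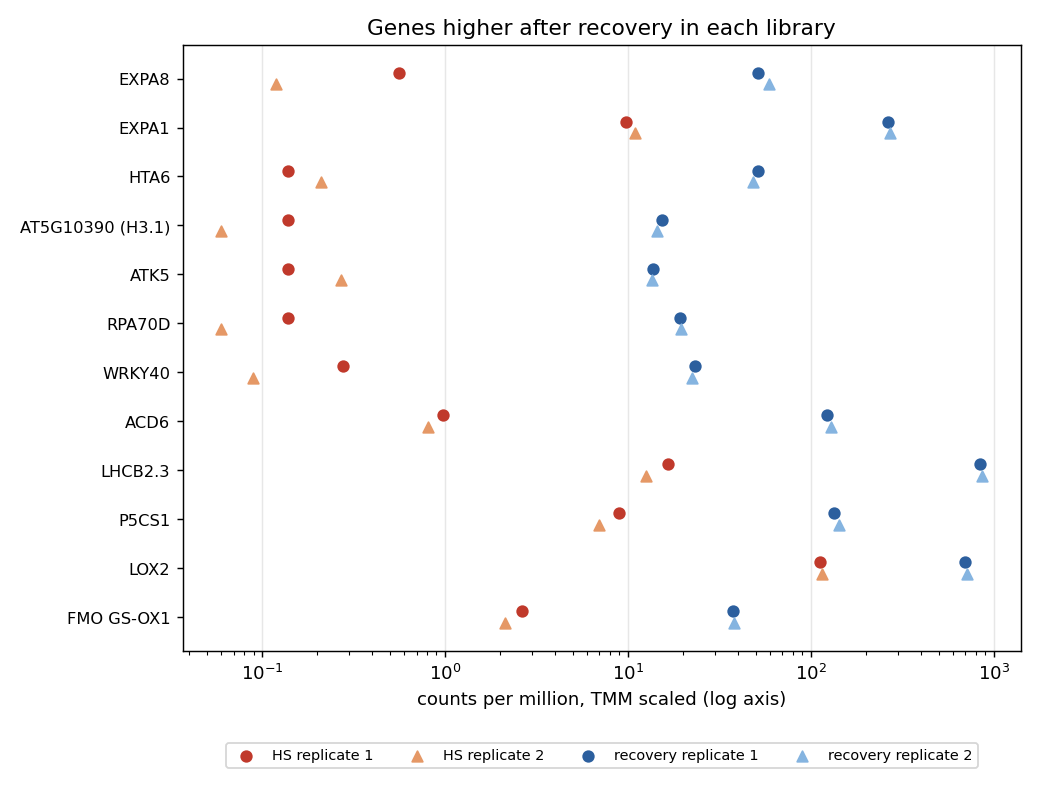
CPM values (TMM scaled, log axis) of 12 genes that were higher after recovery, in each of the 4 libraries; symbols as for the heat response genes. Both recovery libraries lie above both HS libraries in each gene. For EXPA8, AT5G10390, RPA70D and WRKY40 the HS values rest on 1 to 4 reads. Those of HTA6 rest on 1 and 7 reads and those of ATK5 on 1 and 9.

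Of 18 genes of salicylic acid defence and immunity, 13 rose, 4 were lower and 1 did not pass, with a median of 1.78 and 11 more than 2-fold higher under both scalings. WRKY40 had 2 and 3 reads at the end of HS and 321 and 328 reads after recovery (7.45 ± 0.25) and CBP60G, which drives salicylic acid synthesis, 2 and 3 reads at the end of HS and 212 and 279 reads after recovery (7.04 ± 0.28). WRKY33 stood at 6.56 and 5.06 CPM at the end of HS and 116 and 113 CPM after recovery (4.41 ± 0.09). The flagellin receptor FLS2 rose by 4.01, SARD1 by 4.27, WRKY70 by 4.33, EDS1 by 2.96 and PAD4 by 2.26. PR1 stood at 45.2 and 48.6 CPM at the end of HS and 13.5 and 16.9 CPM after recovery (-1.64 ± 0.09) and PR5 at 51.3 and 54.7 CPM at the end of HS and 21.6 and 23.1 CPM after recovery (-1.26 ± 0.08), both lower by TMM and not beyond 2-fold with library totals. PR1 lost its call in the fit of all 6 libraries (adjusted p = 0.084). BAK1, lower by TMM (-0.76 ± 0.07), turned to 0.11 with library totals. Other large increases outside the list were ACD6, a regulator of cell death, from 0.978 and 0.809 to 123 and 128 CPM (7.21 ± 0.12), and the TIR domain gene AT1G72910, with 0 and 7 reads at the end of HS and 472 and 440 reads after recovery (7.48 ± 0.22).

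Jasmonate genes rose in 5 of 8 tested, with 1 lower and a median of 1.03, beside 45.4% of all genes higher. With library totals 7 were higher, beside 69.9% of all genes, and 1 lower, and 3 were more than 2-fold higher under both scalings. LOX2, which makes the jasmonate precursor, stood at 113 and 116 CPM at the end of HS and 697 and 717 CPM after recovery (2.63 ± 0.06), and the defensin PDF1.2 at 12.2 and 16.1 CPM at the end of HS and 103 and 125 CPM after recovery (2.91 ± 0.08). VSP2 was lower by TMM, at 115 and 113 CPM at the end of HS and 55.5 and 58.2 CPM after recovery, and lost its call in the fit of all 6 libraries (adjusted p = 0.17). The leaf senescence list had 11 of 15 higher and 1 lower, with a median of 0.69 and 5 more than 2-fold higher under both scalings, while all 15 were higher with library totals. SEN1 had 6 and 13 reads at the end of HS and 336 and 398 reads after recovery (5.75 ± 0.19) and SAG101, which is also an immune partner of EDS1, 2 and 20 reads at the end of HS and 158 and 147 reads after recovery (4.29 ± 0.24). The chlorophyll-breakdown enzyme PPH rose by 0.69, and NYC1, NAP and SGR1 (NYE1) did not pass.

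Glucosinolate synthesis genes, which make sulphur-containing defence compounds of the Brassicaceae, rose in 19 of 20, of which 18 were more than 2-fold higher under both scalings, with log2 fold changes up to 5.73. The flavin monooxygenase gene FMO GS-OX1 stood at 2.65 and 2.13 CPM at the end of HS and 37.8 and 38.2 CPM after recovery (4.09 ± 0.13) and the sulphotransferase SOT17 at 2.93 and 3.48 CPM at the end of HS and 40.6 and 39.5 CPM after recovery (3.57 ± 0.11). The regulators MYB29, MYB34 and MYB51 rose by 2.12 to 2.68, and MYB76 had 0 and 2 reads at the end of HS and 43 and 42 reads after recovery, a ratio of 60.5 (95% counting interval 16.3 to 508). CYP79B3, the single gene that was lower by TMM (-0.46 ± 0.07), turned to 0.41 with library totals. Flavonoid genes split: of 8 tested, 4 rose and 2 fell, all 6 beyond 2-fold under both scalings. Chalcone synthase (TT4), the first enzyme, stood at 351 and 387 CPM at the end of HS and 26.46 and 28.2 CPM after recovery (-3.76 ± 0.07), and its activator MYB111 at 21.8 and 22.6 CPM at the end of HS and 0.940 and 1.09 CPM after recovery (-4.45 ± 0.18). The later enzymes TT5, FLS1, LDOX and DFR rose by 1.68 to 2.66, LDOX with 5 and 20 reads at the end of HS and 33 and 34 reads after recovery, and its call was lost in the fit of all 6 libraries (adjusted p = 0.075).

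Photosynthesis lists changed little, and their direction depended on the scaling. Of 20 light-harvesting genes 7 were higher and 12 lower by TMM (median -0.23), but 15 higher and 2 lower with library totals (median 0.63). Of 25 photosystem and electron transport genes 9 were higher and 12 lower by TMM and 21 and 1 with library totals. The Rubisco and Calvin cycle list had 1 higher and 15 lower by TMM and 8 and 6 with library totals, and the chlorophyll synthesis list 8 and 12, then 17 and 3. Single genes stood out from this. LHCB2.3 stood at 16.6 and 12.6 CPM at the end of HS and 836 and 868 CPM after recovery (5.97 ± 0.08), while LHCB2.1 went from 1246 and 1302 to 1982 and 1941 CPM (0.62 ± 0.05). The photosystem I subunit PSAN rose from 623 and 673 to 1947 and 1920.2 CPM (1.57 ± 0.05). Protochlorophyllide reductase A (PORA) stood at 2.93 and 1.68 CPM at the end of HS and 18.6 and 18.1 CPM after recovery (3.25 ± 0.16) and the chelatase subunit CHLI2 at 22.8 and 24.1 CPM at the end of HS and 78.7 and 82.3 CPM after recovery (1.76 ± 0.07). No gene of the 4 lists was beyond 2-fold lower under both scalings. Rubisco activase (RCA), known to unfold in heat, was lower by TMM, at 19251 and 18188 CPM at the end of HS and 6684 and 6918 CPM after recovery (-1.46 ± 0.05), and by -0.60 with library totals.

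Ribosomal genes were lower by TMM, partly within the range of the scaling. Of 38 cytosolic ribosomal protein genes, 36 were lower and 2 higher (median -1.21), with 23 and 10 by library totals and of the 2 that were higher RPL10B lost its call without HS replicate 2 (adjusted p = 0.18). Only 2 genes, RPS5B and RPL3A (RP1), were more than 2-fold lower under both. RPS5B stood at 411 and 408 CPM at the end of HS and 98.6 and 102 CPM after recovery (-2.03 ± 0.06). All 12 ribosome assembly genes were lower by TMM (median -1.43) and 9 by library totals, with 2 higher by them. PES (AT5G14520), BOP1 (AT2G40360) and the fibrillarin FIB1, which process ribosomal RNA, were the 3 more than 2-fold lower under both: PES stood at 319.8 and 319 CPM at the end of HS and 48.1 and 52.0 CPM after recovery (-2.67 ± 0.06) and FIB1 at 461 and 481 CPM at the end of HS and 92.3 and 95.1 CPM after recovery (-2.33 ± 0.06). The 26S proteasome list had 16 of 18 lower by TMM (median -0.79) but 8 higher and 7 lower with library totals. RPN6 (ATS9), at 312 and 285 CPM at the end of HS and 57.0 and 59.8 CPM after recovery (-2.35 ± 0.06), was the single one beyond 2-fold under both. Autophagy genes were lower in 12 of 16 and higher in 3 by TMM, and 5 and 5 with library totals, and of the 3 ATG1A (AT3G61960) lost its call without HS replicate 1 (adjusted p = 0.071), HS replicate 2 (0.18) or recovery replicate 1 (0.11). ATG8H, ATG8A and ATG18A, beyond 2-fold lower under both, fell by 2.66, 2.41 and 2.22.

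SR splicing factors, which choose splice sites, were lower in 15 of 19 by TMM (median -0.98) and in 9 with library totals, which put 6 higher, and 5 were more than 2-fold lower under both. SR45a stood at 956 and 973 CPM at the end of HS and 21.5 and 24.1 CPM after recovery (-5.40 ± 0.07) and SR30 at 596 and 621 CPM at the end of HS and 43.2 and 43.1 CPM after recovery (-3.82 ± 0.06). Plasma membrane aquaporins, the water channels, were lower in 12 of 13 (median -2.07), 10 lower and 3 higher with library totals and 7 lower beyond 2-fold under both. PIP2;3 (RD28) stood at 2186 and 2053 CPM at the end of HS and 18.7 and 22.2 CPM after recovery, the largest decrease of the list (-6.69 ± 0.07), and PIP2;2 (PIP2B) at 528 and 639 CPM at the end of HS and 45.6 and 42.4 CPM after recovery (-3.74 ± 0.07). PIP2;8 rose from 1.68 and 1.71 to 13.6 and 11.6 CPM (2.88 ± 0.18). PIP2;2 and PIP2;3 are near-identical neighbours and may share reads.

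Clock genes differed between the pairs. By the study's schedule the recovery plants were collected 48 h, a whole number of days, after the end of HS. The hour itself is not given, and a part of time of day in these values was not tested. Of 21 clock genes, 8 were higher, 12 lower and 1 did not pass, beside 45.4% higher and 40.7% lower of all genes. The morning genes CCA1 and LHY stood at 87.8 and 84.4 CPM at the end of HS and 16.9 and 16.0 CPM after recovery (-2.38 ± 0.07) and at 13.4 and 14.17 CPM at the end of HS and 2.82 and 2.46 CPM after recovery (-2.40 ± 0.16). RVE4 (LCL1), which acts in the afternoon, stood at 273 and 278 CPM at the end of HS and 34.3 and 34.8 CPM after recovery (-3.00 ± 0.06). ELF4 of the evening complex had 2 and 17 reads at the end of HS and 54 and 80 reads after recovery (3.31 ± 0.31), PRR3 rose by 2.00 and LNK2 (AT3G54500) by 1.70. TOC1, the partner of CCA1, had a log2 fold change of 0.01 and did not pass. In the PIF and warm temperature list 3 of 9 rose and 5 were lower by TMM, beside the same shares of all genes. HY5, a light-response factor, stood at 21.8 and 23.1 CPM at the end of HS and 2.82 and 1.78 CPM after recovery (-3.31 ± 0.15), PIF5 (PIL6) at 22.3 and 23.46 CPM at the end of HS and 93.1 and 93.9 CPM after recovery (2.01 ± 0.07), and IAA29 rose by 2.97. PIF4 did not pass (-0.05). With library totals the counts of higher and lower were 5 and 2 for this list and 11 and 7 for the clock. Of all genes 69.9% were then higher and 19.7% lower.

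Cold response genes went both ways, as all genes did: 9 of 15 were higher and 5 lower, beside 45.4 and 40.7% of all genes. The median was 1.01. Beyond 2-fold under both scalings 5 were higher and 2 lower, beside 25.0 and 7.10% of all genes. The dehydrins and small protective proteins KIN1, COR47 and COR6.6 (KIN2) were lower: KIN1 had 98 and 569 reads at the end of HS and 13 and 33 reads after recovery (-3.31 ± 0.19) and COR47 stood at 373 and 444 CPM at the end of HS and 101 and 95.2 CPM after recovery (-2.07 ± 0.06). COR15B, a plastid protein, stood at 1.82 and 2.34 CPM at the end of HS and 18.1 and 21.74 CPM after recovery (3.15 ± 0.15) and the zinc finger gene ZAT10 (STZ) at 5.03 and 4.61 CPM at the end of HS and 30.2 and 28.1 CPM after recovery (2.63 ± 0.12). In the abscisic acid and proline list 5 of 9 were higher and 3 lower by TMM, beside 45.4 and 40.7% of all genes, and 7 were higher and 1 lower with library totals, with 3 more than 2-fold higher under both scalings. P5CS1, which makes proline, stood at 8.94 and 6.98 CPM at the end of HS and 134 and 142 CPM after recovery (4.23 ± 0.08), and both proline dehydrogenases, which break it down, rose too, PDH1 (ERD5) from 5.87 and 7.49 to 58.4 and 57.4 CPM (3.02 ± 0.09). The phosphatases ABI1 and HAB1, lower by TMM (-0.85 ± 0.07 and -0.60 ± 0.10), turned to 0.01 and 0.26 with library totals.

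Scavengers of peroxide and superoxide were lower in 14 of 19 by TMM and in 6 with library totals, with 3 and 10 higher and 1 more than 2-fold higher under both scalings. The catalases parted: CAT2 stood at 1598 and 1447 CPM at the end of HS and 416 and 400.4 CPM after recovery (-1.90 ± 0.06) and CAT3 at 1163 and 1099 CPM at the end of HS and 3961 and 3851 CPM after recovery (1.79 ± 0.05). Of 9 fatty acid desaturases, 6 were lower and 3 higher by TMM and 3 and 5 with library totals, and 1 was more than 2-fold higher under both scalings. The plastid desaturase FAD7 stood at 488 and 473 CPM at the end of HS and 201 and 215 CPM after recovery (-1.21 ± 0.05), and its relative FAD8, known to act at low temperature, rose from 18.6 and 17.35 to 44.3 and 44.2 CPM (1.32 ± 0.08). Nitrate assimilation genes were split 3 and 3 by TMM, with NRT1.1 at 26.7 and 28.4 CPM at the end of HS and 64.2 and 66.5 CPM after recovery (1.23 ± 0.07), and 5 were higher with library totals, 1 of them more than 2-fold under both scalings. Of these 6, GS2 (-0.52 ± 0.05 by TMM) turned to 0.34 with library totals, and NIA2 (-0.12 ± 0.05 by TMM) to 0.75. NIA2 also lost its call without recovery replicate 1 (adjusted p = 0.10) or 2 (0.13).

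Genes often used to normalise RT-qPCR were called about as often as all genes, but every call by TMM was lower. Of 9, 8 were lower by TMM, beside 86.2% of all genes tested called in either direction and 40.7% lower. More than 2-fold lower by TMM were 5 of the 9, beside 18.4% of all genes. With library totals 5 were lower and 3 higher, and none was beyond 2-fold in either direction. The ubiquitin-conjugating enzyme gene UBC28 stood at 444 and 449 CPM at the end of HS and 147 and 146 CPM after recovery (-1.61 ± 0.05 by TMM, -0.74 with library totals) and GAPC2 at 1165 and 1120.5 CPM at the end of HS and 765 and 796 CPM after recovery (-0.55 ± 0.05 and 0.31). AT2G28390 (SAND) did not pass (0.16).

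Among single genes past the test with a mean of at least 10 CPM, the 12 largest decreases were 8 small heat shock proteins (HSP21, AT1G07400, HSP17.4, HSP22.0, HSP23.6, AT1G53540, HSP17.6A and HSP17.6II), HSFA2, HSFA7B, the plastid protease FTSH6 and the DnaJ-domain gene AT1G71000. This order is by fitted change, and HSFA7B and FTSH6, with no reads after recovery, would stand behind AT1G52560 (-10.15 ± 0.14) and AT2G29500 (-9.96 ± 0.08) if entered at their bounds. FTSH6 had 215 and 852 reads at the end of HS and 0 and 0 reads after recovery and was at least 249.7-fold lower. AT1G71000 had 1964 and 8803 reads at the end of HS and 1 and 1 reads after recovery, a ratio of 3779 (95% counting interval 1046 to 31210.3). The 12 largest increases were EXPA8, HTA6, PME5, AT1G72910, WRKY40, ENODL14, PLA2A, ACD6, ENODL15, DIC2, AT1G06760 and AT2G24600, from 8.08 to 6.80 on the log2 scale. PLA2A, a lipase of the defence response, had 3 and 2 reads at the end of HS and 284 and 296 reads after recovery, and DIC2, a mitochondrial dicarboxylate carrier, 4 and 6 reads at the end of HS and 444 and 518 reads after recovery. The HS values of these 2 genes rest on 2 to 6 reads per library, which sets the size of the fold only roughly.

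The 5 called genes with the highest CPM were HSP18.2, RBCS1A, RCA, HSP22.0 and HSC70-1 at the end of HS, and CAB1, RBCS1A, LHB1B2, RCA and LHCA4 after recovery. HSP18.2, HSP22.0 and HSC70-1 thus stood beside the leading photosynthesis genes at the end of HS and were not among the first 5 after recovery. CAB1 stood at 13275 and 13734 CPM at the end of HS and 12428 and 12363 CPM after recovery, a log2 fold change of -0.12 ± 0.05 (adjusted p = 0.019), which lost its call without recovery replicate 1 (adjusted p = 0.070) or 2 (0.083) and turned to 0.74 with library totals. LHCA4 stood at 6154 and 5797 CPM at the end of HS and 6905 and 6490.1 CPM after recovery (0.16 ± 0.05, adjusted p = 0.0027), and lost its call without recovery replicate 1 (0.094).

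The size and sign of the changes went with abundance. In 5 groups of 3594 genes, ordered by mean CPM over the 4 libraries, the median log2 fold change was 1.41, 0.66, 0.16, -0.31 and -0.81 from the lowest to the highest group, and 2.27, 1.52, 1.03, 0.55 and 0.05 with library totals. In the lowest group 2415 genes were higher and 506 lower, and in the highest 701 and 2694. The order was the same under both scalings, which follows from the nearly constant shift between them. The CPM that set the groups came from the same 4 libraries as the changes. The part of abundance in the changes of the lists was not tested.

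**Figure D4:**
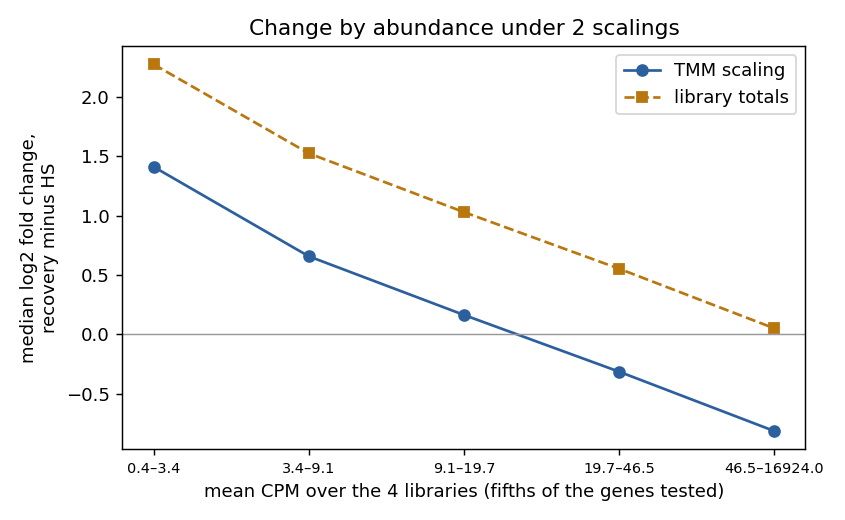
Median log2 fold change (recovery minus HS) of the genes tested, in 5 groups of equal size by mean CPM over the 4 libraries, under TMM scaling (circles) and library totals (squares). The medians run from 1.41 to -0.81 by TMM and from 2.27 to 0.05 with library totals.

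Gene structure differed along the same comparison, as a description. Of 17574 protein-coding genes tested, 12.1% had a single exon in every RefSeq transcript, against 27.9% of 251 called at least 16-fold lower, 32.2% of 568 called at least 16-fold higher, 10.2% of those more than 2-fold lower and 19.7% of those more than 2-fold higher. Of 3910 pseudogene loci, the class in which RefSeq keeps transposon genes, 135 had enough reads, 41 were more than 2-fold higher and 52 more than 2-fold lower by TMM, beside 25.0 and 18.4% of all genes, with the 7 ONSEN loci among the 52. Loci of the mitochondrial genome took 0.107 and 0.237% of the reads at the end of HS and 0.0105 and 0.0110% after recovery, and loci of the chloroplast genome 0.180 and 0.287% against 0.271 and 0.271%. The HS replicates differed from each other in both shares.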

How the data were processed

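The authors made non-strand-specific TruSeq libraries, trimmed reads with the FASTX toolkit, mapped them to TAIR10 with tophat2 at default settings and deposited raw read counts per TAIR10 gene obtained with Qualimap, which were used here as deposited. The submitters' processing notes name FastQC and TopHat, with no versions. RPKM columns and the *A. lyrata* files were not used. Library totals of 9624503 to 45254555 reads limit the precision of low genes, and intervals and bounds cover counting error only.

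The 4 libraries were fitted with edgeR 4.0.16 (R 4.3.3, limma 3.58.1) by quasi-likelihood after filterByExpr (minimum count 10, minimum total 15), with TMM factors of 0.7445, 0.738, 1.353 and 1.345, adjusted by Benjamini-Hochberg over 17970 genes at 0.05. SE is the log2 fold change divided by the root of F. Changes beyond 2-fold were tested with glmTreat. On counts simulated for this comparison (17970 genes) all 50 genes each changed 2- or 4-fold in either direction were called, with 10 false calls. The simulation left all other genes unchanged, changed no gene of low abundance and gave every gene the same spread between replicates. In the data 86.2% of genes were called, so it cannot test the scaling or the calls of low genes. Fits with DESeq2 1.42.0, other scalings and filters, all 6 *A. thaliana* libraries, a replicate block and each library left out were compared. The tests against 2-fold with library totals were added after seeing the data.

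The 39 gene lists and the members were chosen with earlier results of these data known. Named were the genes the study names, ONSEN loci, up to 3 higher and 3 lower genes per list (past the test, no overlap of libraries, mean of at least 1 CPM, largest change first; where none passed, the 2 of smallest p), the 12 largest increases and decreases with a mean of at least 10 CPM, and the 5 called genes of highest CPM per group. Further list members were named after their values were seen. A group with 0 reads was set to 3 reads over the group for a bound, and genes with 1 to 3 reads in a group got a read ratio with an exact 95% interval. Windows of 250 bases before to 50 after the gene start were read from the RefSeq genome TAIR10.1, in which 31912 of 32678 loci (97.66%) were matched. Gene starts of the table and of RefSeq lay within 2000 bases in 99.82% of matched loci, and 56.26% had an identical start or end, so a window follows the RefSeq start.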

Additional observations from a re-analysis of the deposited data

How the results depend on the processing

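With library totals 12561 genes were higher and 3542 lower, and testing against a 2-fold change gave 4485 higher and 3314 lower by TMM and 1275 lower with library totals. The share of higher genes among those called was 52.7% by TMM, 78.0% with library totals and 63.9% with the upper quartile (9971 higher, 5633 lower). The counts stayed within 1.5 times those reported with DESeq2 size factors, no filter, at least 10 reads in every library, the DESeq2 test, all 6 libraries and without organelle loci. Leaving out 1 library gave 7295 to 7959 genes higher and 6785 to 7792 lower, where the lone library of a pair is assumed to vary like the other group.

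Replicate numbers did not pair the libraries: over 14660 genes with a mean of at least 50 reads the replicate differences of the 2 groups correlated by 0.057. With the replicate block 8116 genes were higher and 7290 lower, and all 201 named genes that could be compared kept their call.

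Of those 201, 17 changed sign with library totals, to log2 fold changes of 0.230 (HDA6), 0.314 (GAPC2), 0.417 (PLE), 0.276 (CYCD3;1), 0.543 (AT1G07660), 0.529 (DMS11), 0.105 (BAK1), 0.174 (ACD2), 0.431 (CEV1), 0.659 (CESA1), 0.014 (ABI1), 0.264 (HAB1), 0.411 (CYP79B3), 0.341 (GS2), 0.749 (NIA2), 0.150 (CA1) and 0.740 (CAB1), the same in the test against 2-fold with library totals. With the upper quartile 5 changed sign, to 0.039 (AT1G07660), 0.024 (DMS11), 0.159 (CESA1), 0.249 (NIA2) and 0.241 (CAB1), and of the 162 that had at least 10 reads in every library 2 did, to 0.066 (NIA2) and 0.058 (CAB1). Lost calls numbered 52 in the test against a 2-fold change and 43 in that test with library totals, 8 with library totals, 6 with the DESeq2 test, 2 with DESeq2 size factors, 5 with no filter, 3 with at least 10 reads in every library, 3 with the upper quartile, 16 with all 6 libraries and 1 to 4 with a library left out. Sign changes under another scaling follow from its constant shift, and the cause of the other changes was not tested. Folds of genes with few reads in a group are limited by depth.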
